A study of Homo sapiens with 4 samples.

Results

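Endoplasmic reticulum (ER) chaperones are described here through 10 genes: HSPA5, HYOU1, DNAJB9 and DNAJB11 of the ER Hsp70 system, the ER Hsp90 gene HSP90B1, the lectin chaperones CALR and CANX, and the protein disulfide isomerases PDIA3, PDIA4 and PDIA6. They were taken as a listed set by mapping Ensembl identifiers to current symbols. All 10 were found among the 36525 genes of the table, and all 10 were among the 13627 genes with a mean of at least 1 RPKM, a read number divided by the length of the transcript and by a total of mapped reads. The series concerns the splicing factor hnRNPM in LM2 cells, a lung-metastatic clonal line derived from the mesenchymal breast cancer line MDA-MB-231. There were 2 libraries of hnRNPM knockdown cells and 2 of control cells, grown in the same serum-containing medium and collected 48 h after plating. The labels call the agent an shRNA in one place and an siRNA in another, so only the word knockdown is used, and the sources used here do not describe the control agent. The line is described as clonal and all 4 libraries come from it, so no other line is represented. The labels do not state separate cultures for libraries of the same group, so p-values reflect only how far these samples differ, and that spread may be technical.

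Proteins that enter the secretory pathway fold in the ER lumen. HSPA5 (BiP) holds unfolded chains with the help of J-domain cochaperones and nucleotide exchange factors, CALR and CANX hold glycoproteins through their sugar chains, and disulfide isomerases form and rearrange disulfide bonds. When unfolded protein builds up, the sensors ATF6, IRE1 (ERN1) and PERK (EIF2AK3) start the unfolded protein response. Its transcription factors ATF6 and XBP1 bind ER stress response elements upstream of many chaperone genes.

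Exact matches to these elements are shown as a sequence feature that some of the chaperone genes share. The ER stress response element (ERSE) was searched as CCAAT, 9 bases of any kind and CCACG, ERSE-II as ATTGG, 1 base and CCACG, and the unfolded protein response element (UPRE) as TGACGTGG. Both strands were searched in the 250 bases upstream of RefSeq gene starts (build GRCh38.p14), where 9 of the 10 genes had an entry. Only 25 of 27305 genes (0.0916%) held an ERSE in this window, and 5 of them were HSPA5, HSP90B1, CALR, CANX and PDIA6. The sites are printed 5′ to 3′ in the orientation of the motif, with the matched bases in capitals and the bases between in lower case.
HSPA5: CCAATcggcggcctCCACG
HSP90B1, distal: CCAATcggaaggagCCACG
HSP90B1, proximal: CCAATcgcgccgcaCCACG
CALR: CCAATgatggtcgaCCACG
CANX: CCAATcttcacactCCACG
PDIA6: CCAATgagccgcagCCACG
HYOU1, ERSE-II at both sites: ATTGGaCCACG
HYOU1, UPRE: TGACGTGG

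The HSPA5 site lies at chr9:125241391-125241409 on the minus strand, its first base 66 bases upstream of the start. The HSP90B1 sites lie at chr12:103930216-103930234 (194 bases upstream) and, on the strand opposite to the gene, at chr12:103930321-103930339 (89 bases upstream). The CALR site lies at chr19:12938384-12938402, 225 bases upstream and opposite to the gene. The CANX site lies at chr5:179698778-179698796, 151 and 189 bases upstream of 2 of the 4 listed starts of CANX, and the PDIA6 site at chr2:10812853-10812871 on the minus strand, 86 bases upstream of 1 of its 2 starts. HYOU1, which had no ERSE, held ERSE-II at chr11:119057274-119057284 and chr11:119057380-119057390, and was 1 of 18 genes (0.0659%) with that motif. Its UPRE at chr11:119057386-119057393 overlapped the second of these, and 213 genes (0.78%) held a UPRE. DNAJB9, DNAJB11 and PDIA4 held no exact match to the 3 motifs in this window. Sites with a changed base were not searched, so these genes may hold related elements. These matches are descriptions of sequence, not of binding.

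As a check of the labels, HNRNPM stood at 88.6 and 102 RPKM in the control libraries but at 11.5 and 12.95 RPKM after knockdown, 7.80-fold lower in the mean (limma, Benjamini-Hochberg adjusted p = 1.48e-59). The mesenchymal marker VIM stood at 562 to 760 RPKM and the epithelial marker EPCAM at 0.910 to 1.25 RPKM. CDH1, another epithelial marker, was listed at 0.0774 and 0.0629 RPKM in control cells and 0.717 and 0.990 RPKM after knockdown, below the level needed for the test. The leukocyte marker PTPRC did not exceed 0.0158 RPKM. The smallest steps between low RPKM values corresponded to 1 read total per group, 41.9 M in the control pair and 29.7 M in the knockdown pair, so the deposited values are not scaled to the depth of each library. RPKM sums were 162466 and 187293 in the controls against 163078 and 180958 after knockdown, and all 10 chaperones were higher in library 2 than in library 1 of both groups. Members and list counts are given on the deposited values and after median-ratio scaling, which divides each library by its median ratio to the 4-library mean profile and brought the median standard error of a log2 fold change from 0.175 to 0.0544. The median log2 fold change of all tested genes was -0.07 on the deposited values and -0.00 after scaling.

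The most abundant chaperone transcript, CALR, was among the highest in the cells (rank 26 of all genes by mean RPKM), and DNAJB9 and PDIA3 were the lowest of the 10. On the deposited values DNAJB9 rose after knockdown and no other chaperone passed the test. After median-ratio scaling 6 were higher (CALR, HSPA5, DNAJB9, PDIA6, HYOU1 and CANX), 1 was lower (PDIA4) and 3 did not pass (HSP90B1, PDIA3 and DNAJB11). Changes were small: 9 of the 10 had deposited log2 fold changes under 0.4 in size. On the deposited values the smallest changes that passed among all tested genes were 0.41 and -0.41. Smaller changes passed after scaling, such as 0.06 for CANX.

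Those counts stand beside a broad response. In limma with Benjamini-Hochberg adjustment, 14.7% of tested genes were higher and 21.8% lower on the deposited values, against 1 and 0 of the 10 chaperones. Of the 9 chaperones that did not pass, PDIA4 had an unadjusted limma p of 0.0461, and 45.1% of tested genes had a larger change. Without adjustment 2 of the 10 were under 0.05, the other being DNAJB9, while 36.4% of all tested genes passed even after adjustment. After scaling 30.8% of tested genes were higher and 30.2% lower, against 6 and 1. Without overlap between the groups, 28% of genes were higher and 38.8% lower on the deposited values, against 3 chaperones (HSPA5, CALR and DNAJB9) and 1 (PDIA4). After scaling these shares were 41.2% and 41.3%, against 7 and 2 of the 10. The median size of the log2 fold change, its sign left out, was 0.12 for the chaperones and 0.31 for all tested genes (0.17 and 0.30 after scaling). Their signed median was 0.08, and 0.15 after scaling. These are bulk libraries, in which fewer cells with a transcript and less of it per cell cannot be told apart.

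**Figure D1:**
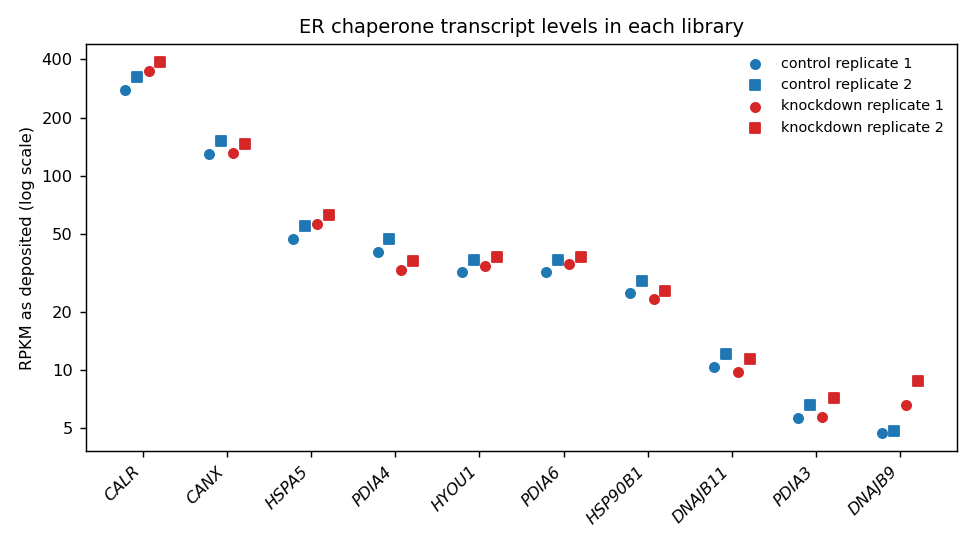
Deposited RPKM of each chaperone gene on a log axis, blue for control and red for knockdown libraries, with circles for replicate 1 and squares for replicate 2. CALR lies highest and DNAJB9 and PDIA3 lowest, and the groups are apart only for HSPA5, CALR, DNAJB9 and PDIA4.

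HSPA5 (ENSG00000044574, chromosome 9), the central ER Hsp70, was at 47.3 and 55.1 RPKM in control cells and 56.7 and 62.9 RPKM after knockdown. The lower knockdown library lay just above the higher control library. The means were 51.2 ± 5.52 and 59.8 ± 4.34 RPKM (SD, n = 2), and the log2 fold change of 0.22 ± 0.17 (SE) did not pass (limma, adjusted p = 0.320). After scaling the values were 49.4 and 49.996 against 61.4 and 61.3, a log2 fold change of 0.30 ± 0.02 that passed (limma, adjusted p = 0.000784). The scaled difference passed in each of the 4 fits that left out 1 library.

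HYOU1 (ENSG00000149428, chromosome 11), a large Hsp70-type exchange factor for HSPA5, was at 31.8 and 36.9 RPKM in control cells and 34.5 and 38.2 RPKM after knockdown, which overlapped. Its log2 fold change was 0.08 ± 0.17 (limma, adjusted p = 0.748) and 0.16 ± 0.02 after scaling (adjusted p = 0.00337 in limma). An antisense gene, ENSG00000255114, shares 666 of its 667 exon bases with HYOU1 and stood at 70.1 to 83.1 RPKM. The sources used here do not say whether counting used strand, so reads of these genes may not have been told apart. The overlap covers 8.66% of the HYOU1 exon bases.

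DNAJB9 (ENSG00000128590, chromosome 7), a J-domain cochaperone of HSPA5, was at 4.75 and 4.86 RPKM in control cells and 6.62 and 8.76 RPKM after knockdown. Both knockdown libraries were above both controls, and they differed from each other by more than the controls did. The means were 4.80 ± 0.0714 and 7.69 ± 1.51 RPKM, a 1.60-fold rise with a log2 fold change of 0.61 ± 0.18 (limma, adjusted p = 0.00220). A larger change in size was seen in 21.98% of tested genes. The gene rested on an estimated 557 to 737 reads per library. With the depth ratio removed, the knockdown libraries differed by 3.15 counting standard errors and the control libraries by 2.03. On the opposite strand THAP5 shares 183 bases (6.45%) of the DNAJB9 exons and PNPLA8 shares 99 bases (3.49%). THAP5 stood at 0.858 to 1.13 RPKM and PNPLA8 at 2.98 to 3.89 RPKM, so reads may not have been told apart there.

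The DNAJB9 call was also fitted with each library left out, which leaves 1 group with a single library that is assumed to vary like the other group. Its limma adjusted p was 0.0947 without control library 1, 0.0941 without control library 2, 0.354 without knockdown library 2 and 0.0379 without knockdown library 1, the log2 fold change lying between 0.42 and 0.80. After scaling the log2 fold change was 0.68 ± 0.11 (limma, adjusted p = 0.0108), and that call was lost only without control library 2 (adjusted p = 0.0553 in limma).

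DNAJB11 (ENSG00000090520, chromosome 3), an abundant J-domain cochaperone of HSPA5, was at 10.4 and 12.1 RPKM in control cells and 9.72 and 11.3 RPKM after knockdown. The groups overlapped on both scales. Its log2 fold change was -0.09 ± 0.18 (limma, adjusted p = 0.728) and -0.02 ± 0.03 after scaling (adjusted p = 0.722 in limma). Within each library the ratio of DNAJB9 to DNAJB11 was 0.457 and 0.403 in the controls against 0.681 and 0.773 after knockdown. TBCCD1, on the opposite strand, shares 381 bases (6.65%) of the DNAJB11 exons. It stood at 1.72 and 1.88 RPKM in the controls and 3.55 and 3.69 RPKM after knockdown.

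HSP90B1 (ENSG00000166598, chromosome 12), the ER Hsp90, folds a limited set of secreted and membrane proteins such as integrins. It was at 24.99 and 28.8 RPKM in control cells and 23.3 and 25.6 RPKM after knockdown, which overlapped. Its log2 fold change of -0.13 ± 0.17 did not pass (limma, adjusted p = 0.591). After scaling the values were 26.1 and 26.1 against 25.3 and 24.96, without overlap, but the log2 fold change of -0.06 ± 0.02 did not pass either (limma, adjusted p = 0.0638). Both HSPA5 and HSP90B1 hold an ERSE upstream, and their within-library ratio went from 1.89 and 1.91 to 2.43 and 2.46.

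CALR (ENSG00000179218, chromosome 19), the soluble lectin chaperone and calcium store of the ER lumen, was at 277 and 324 RPKM in control cells and 348 and 384 RPKM after knockdown. Both knockdown libraries lay above both controls. The means were 301 ± 33.3 and 366 ± 26.04 RPKM, and the log2 fold change of 0.28 ± 0.16 did not pass (limma, adjusted p = 0.163). After scaling the values were 289.9 and 294 against 376 and 375, with a log2 fold change of 0.36 ± 0.01 (limma, adjusted p = 0.000448) that passed without each library in turn.

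CANX (ENSG00000127022, chromosome 5), the membrane-bound counterpart of CALR, was at 130.35 and 151 RPKM in control cells and 131 and 146 RPKM after knockdown. Both knockdown values lay within the range of the controls. The log2 fold change was -0.02 ± 0.17 on the deposited values (limma, adjusted p = 0.937) and 0.06 ± 0.01 after scaling (adjusted p = 0.0181 in limma), so its sign depended on the scaling. The scaled call was lost without each library in turn (limma, adjusted p 0.0661 to 0.0947). The ratio of CALR to CANX needs no scaling, and it was 2.13 and 2.15 in the controls against 2.65 and 2.64 after knockdown.

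PDIA4 (ENSG00000155660, chromosome 7), a disulfide isomerase with several thioredoxin-like domains, was at 40.7 and 47.5 RPKM in control cells and 32.7 and 36.3 RPKM after knockdown. It was the only chaperone whose knockdown libraries both lay below both controls on the deposited values. The means were 44.1 ± 4.81 and 34.5 ± 2.57 RPKM, 1.28-fold lower, and the log2 fold change of -0.35 ± 0.17 did not pass (limma, adjusted p = 0.106). After scaling the values were 42.5 and 43.1 against 35.4 and 35.4, with a log2 fold change of -0.27 ± 0.02 (limma, adjusted p = 0.00116) that passed without each library in turn.

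PDIA6 (ENSG00000143870, chromosome 2), an isomerase that binds HSPA5, was at 31.9 and 36.7 RPKM in control cells and 35.3 and 38.2 RPKM after knockdown, which overlapped. Its log2 fold change was 0.10 ± 0.17 (limma, adjusted p = 0.691) and 0.18 ± 0.02 after scaling (adjusted p = 0.00418 in limma). ATP6V1C2, a proton pump gene on the opposite strand, shares 1033 bases (25.2%) of the PDIA6 exons and stood at 19.7 to 24.7 RPKM. Part of the PDIA6 signal, and of the ATP6V1C2 signal, is therefore uncertain.

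PDIA3 (ENSG00000167004, chromosome 15), the isomerase that works with CALR and CANX on glycoproteins, was at 5.64 and 6.56 RPKM in control cells and 5.72 and 7.17 RPKM after knockdown. The groups overlapped, and the log2 fold change of 0.07 ± 0.18 did not pass (limma, adjusted p = 0.793), nor did the 0.14 ± 0.07 after scaling (adjusted p = 0.153 in limma). ELL3, on the opposite strand, shares 627 bases (14.8%) of the PDIA3 exons and stood at 0.609 to 0.796 RPKM. The processed copies PDIA3P1 and PDIA3P2 were listed at up to 0.604 RPKM, and those of HSP90B1 at up to 0.210 RPKM. The sources used here do not say how reads with several matches were handled, so the levels of PDIA3 and HSP90B1 are uncertain.

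**Figure D2:**
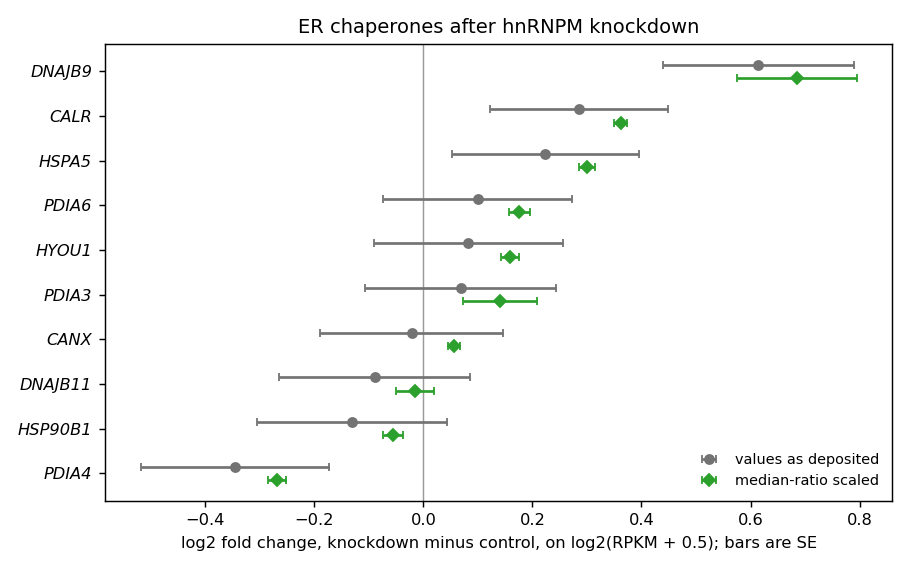
Log2 fold change (knockdown minus control, on log2 of RPKM plus 0.5) of each chaperone gene with bars of 1 standard error, grey circles as deposited and green diamonds after median-ratio scaling. On the deposited values DNAJB9 at 0.61 is the only one past the test, and scaling narrows every bar and moves every value up.

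Ratios between chaperones of the same library are free of its depth. Of the 45 possible pairs, 41 (91.1%) had within-library ratios that did not overlap between groups, against 80.1% of all pairs of tested genes, so nothing particular to the chaperones is read from it. The ratios described were chosen after their values were seen and carry no test. PDIA4 over HSPA5 was 0.8596 and 0.861 in the controls against 0.576 and 0.578 after knockdown, 1.49-fold lower. PDIA4 over PDIA6 was 1.27 and 1.29 against 0.928 and 0.950. The RPKM of PDIA4 thus went from above to below that of PDIA6, whose signal is in part uncertain. DNAJB9 over HSPA5 was 0.1005 and 0.0881 against 0.117 and 0.139. HYOU1 over HSPA5 was 0.672 and 0.66996 against 0.608 and 0.608. HYOU1 over PDIA6 overlapped between the groups, at 0.997 and 1.01 against 0.979 and 0.999.

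**Figure D3:**
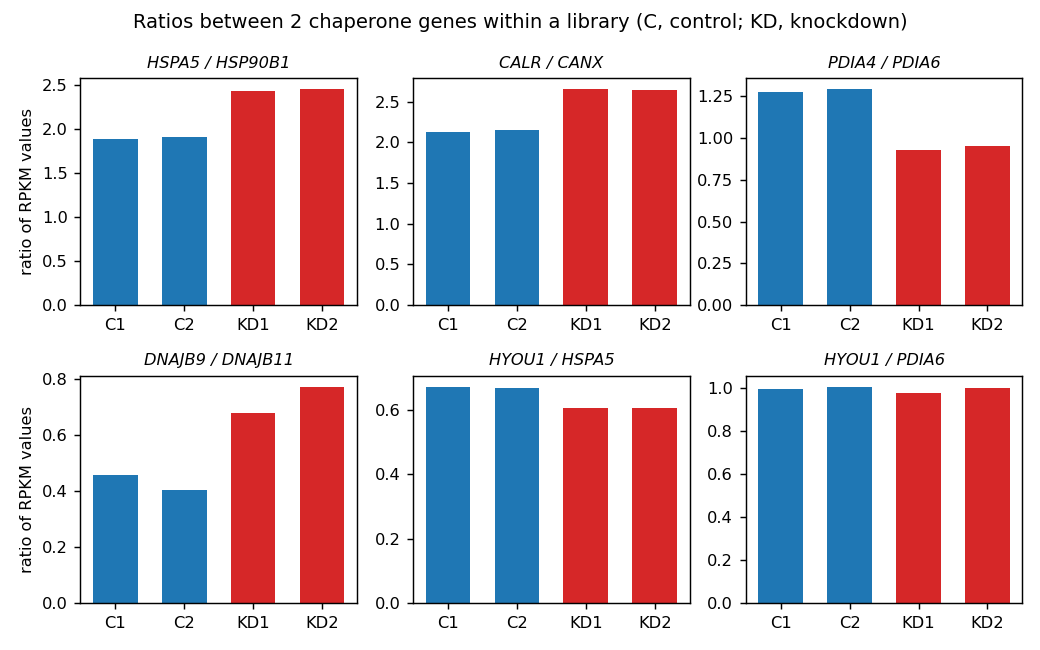
Ratio of the RPKM values of 2 chaperone genes within each library, 1 bar per library (blue, control libraries C1 and C2; red, knockdown libraries KD1 and KD2), in 6 panels with an axis from 0 each. The bars of a group are close in height and apart from the other group for HSPA5 over HSP90B1 and CALR over CANX, while those of HYOU1 over PDIA6 overlap.

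The 10 genes together made up 0.373% and 0.376% of the RPKM sum in the control and 0.419% and 0.419% after knockdown. Without CALR the shares were 0.202% and 0.202% against 0.206% and 0.207%. CALR alone took 45.8% and 46.1% of the summed chaperone RPKM in the control and 50.9% and 50.7% after knockdown. CANX went from a mean of 21.5% to 19.2% of this sum, PDIA4 from 6.73% to 4.79% and HSPA5 from 7.82% to 8.30%.

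Other genes of the secretory pathway were counted in fixed lists. So were unfolded protein response genes, PERK and ATF4 arm targets, and cytosolic and mitochondrial chaperone relatives. In these lists 46 genes beyond the 10 chaperones passed on the deposited values, and all 46 also passed after scaling. Of all tested genes 36.4% passed on the deposited values and 61.0% after scaling. The count of 46 is therefore not read as a result about these lists, whose tested numbers are given below. Of these, 15 passed in all 4 fits that left out 1 library, and these are SERPINH1, FKBP10, TXNDC11, MAN1B1, OSTC, EIF2AK3, PHGDH, PSAT1, ASNS, NUPR1, DDIT4, ATF3, RCN3, DNAJB4 and DNAJB6. The other 31 were lost in at least 1 such fit, and the libraries are given with each named gene. These fits rest on the spread of the group that keeps both libraries and so have less power. All 31 kept their direction in all 4 fits, at 0.664 to 1.34 times the log2 fold change from all 4 libraries. After scaling, 44 of the 46 passed in all 4 fits. Single values in parentheses after a gene are log2 fold changes on the deposited values. SDF2, CRELD1, FKBP14, TMX1, UBE2J1, SSR4, DDIT4, MTHFD2, ATF3 and SLC7A11 lie outside the rule for named genes and were named after their values were seen.

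Among other ER chaperones, cochaperones and prolyl isomerases, 5 rose, 2 fell and 12 did not pass of the 19 tested, with a median log2 fold change of -0.05 against -0.07 for all genes. After scaling 8 were higher, 5 lower and 6 did not pass. SERPINH1 (HSP47), the collagen chaperone, rose 2.12-fold from 22.7 ± 1.83 to 47.97 ± 4.01 RPKM (limma, adjusted p = 1.58e-08). FKBP10, a prolyl isomerase that also acts on collagen, fell 2.51-fold from 14.5 ± 1.01 to 5.77 ± 0.499 RPKM (limma, adjusted p = 2.11e-11). The isomerase PPIC rose (0.70), a call lost without control library 1 or knockdown library 2 (limma, adjusted p 0.0919 and 0.173). CNPY3, a cochaperone of HSP90B1 for Toll-like receptors, fell (-0.62), a call lost without control library 2 or either knockdown library (limma, adjusted p 0.112 to 0.278). SDF2 (0.51) and CRELD1 (0.52) rose but were lost without each library in turn, and FKBP14 (0.55) was lost without control library 1 or either knockdown library.

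Of 19 tested other disulfide isomerases and oxidoreductases, 2 rose, 3 fell and 14 missed the threshold; their median was -0.11. The scaled values gave 5 higher, 6 lower and 8 that did not pass. TXNDC11 rose 1.98-fold (log2 fold change 0.90; limma, adjusted p = 3.59e-06). PRDX4, the ER peroxiredoxin, fell 1.79-fold from 22.3 ± 2.72 to 12.4 ± 0.977 RPKM (limma, adjusted p = 3.10e-05), a call lost without control library 2 (0.0563) or knockdown library 1 (0.0958). DNAJC10, a reductase with a J domain that binds HSPA5, fell 1.58-fold, lost without control library 2 or either knockdown library. TXNDC5 fell 1.40-fold, and TMX1 rose (0.46), both lost without each library in turn. P4HB, the prototype of the isomerase family, was at 106 ± 10.9 and 133 ± 10.2 RPKM, which passed only after scaling (limma, adjusted p = 0.122 and, scaled, 0.000361). CALR over P4HB was 2.81 and 2.85 in the controls against 2.76 and 2.74 after knockdown.

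In the calnexin cycle, where glycan-trimming enzymes mark proteins for CANX and CALR or for disposal, 1 gene rose, 2 fell and 7 did not pass of 10 tested. With scaling 6 were higher, 3 lower and 1 did not pass. MAN1B1, an ER mannosidase, fell 2.24-fold from 9.02 ± 0.951 to 4.02 ± 0.352 RPKM (limma, adjusted p = 1.60e-08). EDEM1 fell 1.46-fold and EDEM3 rose 1.41-fold, both of them mannosidase-like disposal factors, and both calls were lost without each library in turn. Of the 11 tested oligosaccharyltransferase subunits, which attach the glycans, OSTC rose 1.98-fold (limma, adjusted p = 1.56e-06), 0 fell and 10 did not pass, and after scaling 7 were higher and 0 lower.

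ER-associated degradation, which returns misfolded proteins to the cytosol, had 5 genes that rose, 1 that fell and 13 that did not pass of 19, with a median of 0.14. Among them the ubiquitin ligases SYVN1 and RNF139 rose 1.47- and 1.52-fold, DERL1 of the exit channel 1.41-fold and HERPUD1, a scaffold of the ligase complex, 1.36-fold. UBE2J1 (-0.44), a ubiquitin-conjugating enzyme, fell. The calls of these 5 genes were lost without each library in turn (limma, adjusted p 0.0647 to 0.532). After scaling 15 of the 19 were higher and 1 lower, the median being 0.21 against -0.00 for all genes.

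Of 18 tested translocon, signal recognition and signal peptidase genes, 3 rose, 2 fell and 13 missed the threshold; their median was 0.14. On the scaled values 11 were higher, 2 lower and 5 did not pass. SEC61A1, the channel subunit, fell 1.66-fold from 59.4 ± 6.26 to 35.8 ± 2.26 RPKM (limma, adjusted p = 0.000214). SRPRA, the signal recognition particle receptor, rose 1.65-fold from 38.2 ± 2.73 to 62.8 ± 4.30 RPKM (limma, adjusted p = 0.000248). The SEC61A1 call was lost without control library 2 or either knockdown library and the SRPRA call without control library 1 or either knockdown library (limma, adjusted p 0.0669 to 0.168). TRAM1 (1.49-fold) and SEC61G (1.43-fold) rose and SSR4 (-0.46) fell, all lost without each library in turn.

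Of the 7 tested sensors and transcription factors of the unfolded protein response, 3 rose, 1 fell and 3 did not pass, and after scaling 4 were higher, 3 lower and 0 did not pass. EIF2AK3 (PERK), the sensor that slows translation, was at 1.43 and 1.74 RPKM in control cells and 4.05 and 4.44 RPKM after knockdown, a 2.67-fold rise (limma, adjusted p = 1.26e-09). ATF6 was at 10.8 ± 1.07 and 9.52 ± 0.580 RPKM (limma, adjusted p = 0.458, and 0.0342 after scaling). ERN1 (IRE1), at 0.901 to 1.10 RPKM, did not enter the test. CREB3L1 rose 1.51-fold and CREB3 1.37-fold, both lost without each library in turn, and CREB3L2 fell 1.54-fold, lost without control library 2 or either knockdown library. XBP1 and ATF4 were not analysed here.

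Of 14 tested genes known as targets of the PERK and ATF4 arm, 2 rose, 6 fell and 6 missed the threshold, and their median was -0.32. After scaling these numbers were 4 higher, 8 lower and 2 not past the test. PHGDH and PSAT1, enzymes of serine synthesis, fell 3.22-fold and 2.77-fold (limma, adjusted p = 1.67e-17 and 4.02e-14). ASNS, which makes asparagine, fell 2.59-fold, and the stress regulator NUPR1 fell 2.39-fold. DDIT4 (-1.005) also fell, as did MTHFD2 (-0.47), which was lost without each library in turn. ATF3 (1.01) rose, and SLC7A11 (0.75) rose with a call lost without control library 1 or either knockdown library. DDIT3 (CHOP), the factor tied to cell death under ER stress, was at 18.5 and 21.1 RPKM in control cells and 14.5 and 18.4 RPKM after knockdown and did not pass on either scale (limma, adjusted p = 0.236 and, scaled, 0.0877).

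**Figure D4:**
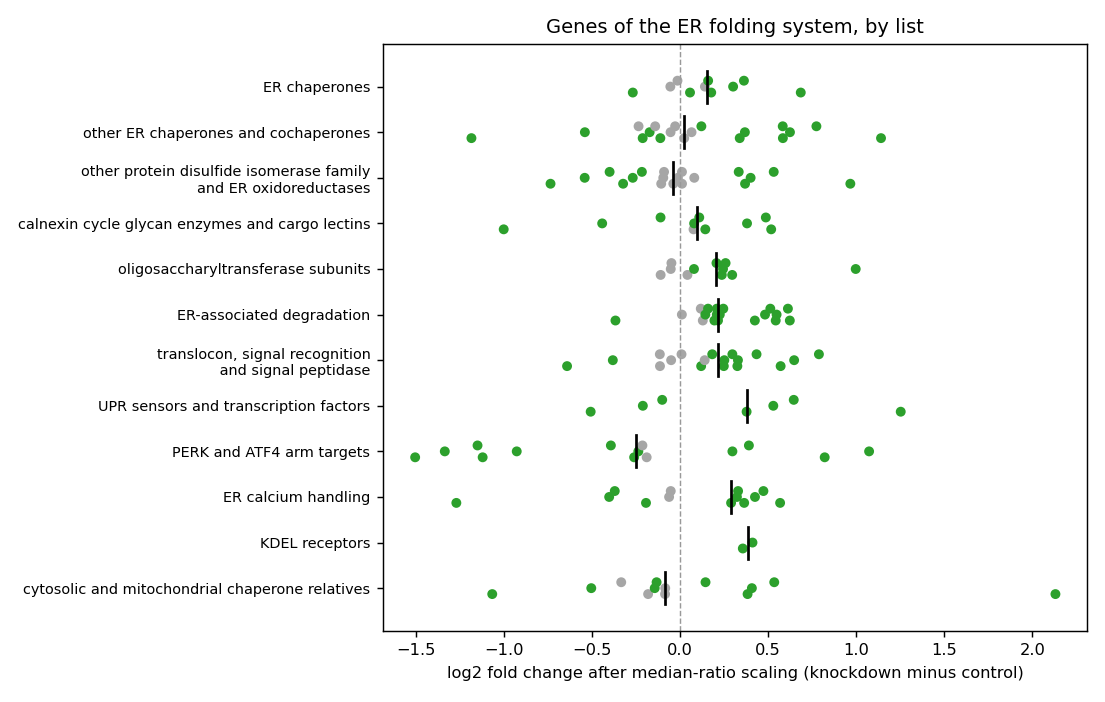
Log2 fold changes after median-ratio scaling of every tested gene in each list, 1 point per gene, green where the limma adjusted p was under 0.05 and grey otherwise, with a black bar at the list median and a dashed line at the median of all tested genes. The chaperones run from -0.27 for PDIA4 to 0.68 for DNAJB9, with a median of 0.15. The PERK and ATF4 arm targets spread furthest below the dashed line.

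ER calcium handling, on which CALR and the other lumenal chaperones depend, had 1 gene that rose, 2 that fell and 10 that did not pass of 13 tested. With scaling 7 were higher, 4 lower and 2 did not pass. RCN3, a calcium-binding lumenal protein, fell 2.97-fold from 4.87 ± 0.219 to 1.64 ± 0.283 RPKM (limma, adjusted p = 3.86e-12). RCN2 rose 1.43-fold and the calcium sensor STIM2 fell 1.49-fold, both lost without each library in turn. The receptors that return escaped chaperones to the ER were not past the test on the deposited values: KDELR1 was at 80.1 ± 7.83 and 97.2 ± 5.24 RPKM, and KDELR2 at 50.3 ± 4.86 and 63.5 ± 4.24 RPKM. Both passed after scaling (limma, adjusted p = 0.000914 and 0.00046). The ratio of HSPA5 to KDELR1 was 0.634 and 0.643 in the controls against 0.607 and 0.623 after knockdown.

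Cytosolic and mitochondrial relatives of the ER chaperones were compared as a contrast of compartment, and 2 rose, 2 fell and 9 did not pass of 13 tested. The scaled values gave 5 higher, 4 lower and 4 that did not pass. DNAJB4, a cytosolic J-domain protein, rose 4.82-fold from 2.50 ± 0.134 to 12.1 ± 1.03 RPKM (limma, adjusted p = 1.61e-29), and DNAJB6 fell 2.34-fold (limma, adjusted p = 1.70e-09). HSP90AA1 fell 1.51-fold and HSPA4 rose 1.38-fold, both lost without each library in turn. HSPA8, the constitutive cytosolic Hsp70, was at 14.1 ± 1.351 and 12.1 ± 0.762 RPKM, which passed only after scaling, with a log2 fold change of -0.13 (limma, adjusted p = 0.369 and, scaled, 0.0130). Within each library HSPA5 over HSPA8 was 3.59 and 3.65 in the controls against 4.89 and 4.96 after knockdown, a shift of 1.36-fold. HSP90B1 over HSP90AA1 was 0.838 and 0.870 against 1.19 and 1.16, a shift of 1.37-fold, while HSP90B1 over the more abundant HSP90AB1 was 0.432 and 0.438 against 0.467 and 0.458, a shift of 1.06-fold.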

How the data were processed

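The authors deposited RPKM values for 36525 Ensembl genes in 4 libraries. The submitters' processing notes name Bowtie 0.12.7 and the human build hg19. The sources used here do not name the counting program. Identifiers were mapped to current symbols, and all 10 members matched. Exon overlaps came from GENCODE 29 and upstream sequences from RefSeq (GRCh38.p14). Genes of chromosomes 20, 21 and 22 were not analysed here.

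Values were analysed as log2(RPKM + 0.5) where the mean RPKM reached 1. limma 3.58.1 (R 4.3.3) compared the groups with no covariate, moderated the variances along their trend and adjusted p-values by Benjamini-Hochberg over 13627 genes (threshold 0.05). The script was tested on simulated data. This scale understates the change of low genes. On the deposited values limma estimated no spread of variance beyond its trend, on which very small p-values rest. On the scaled values it estimated 1.64 prior degrees of freedom. An exact permutation test of 2 against 2 libraries cannot go below p = 0.333 (two-sided), so none was run. Estimated reads, from the RPKM steps and exon lengths, were 16.5 M to 26.6 M per library and were used only for counting error. The members and gene lists were chosen with earlier results of these data known. Named genes are the members, HNRNPM, up to 4 genes per list with the smallest p, and 15 fixed names. Alternatives were other scalings, pseudocounts and filters, no variance trend, a minimum fold of 1.5, a replicate block and leaving out each library. The leave-outs on scaled values were added after seeing the data. The values of 1 gene that the rule for named genes takes are not reported here.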

Additional observations from a re-analysis of the deposited data

How the results depend on the processing

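On the deposited values 2000 genes were higher and 2964 lower, with 1 and 0 of the 10 chaperones. Median-ratio scaling gave 4192 higher and 4122 lower genes and 6 chaperones higher and 1 lower. Equal RPKM sums gave 3696 and 4638 genes and 5 and 2 chaperones. Without the filter on low values 551 and 668 genes passed, and with the filter raised to 5 RPKM these were 1047 and 1321. No chaperone (0) passed without the filter, where DNAJB9 was lost, or against a minimum fold of 1.5, where 360 and 479 genes passed. Over the fits that left out 1 library, on deposited or scaled values, the counts ranged from 759 to 3593 higher and 1057 to 3685 lower genes, with 0 to 6 chaperones higher and 0 to 1 lower. Pseudocounts of 0.1 and 1 changed the call of none of the 10 chaperones.

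A replicate block gave 3109 higher and 4318 lower genes with 3 chaperones higher and 1 lower, and with median-ratio scaling 3856 and 3738 genes and 5 and 1 chaperones. Deviations of same-numbered libraries correlated at 0.0307, so the numbers were not taken to pair the libraries.

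CANX changed sign, to 0.0557 with median-ratio scaling with or without the block and to 0.000846 with equal RPKM sums. With 1 library left out, the log2 fold change on the deposited values ranged from -0.126 to 0.0832 for CANX and -0.0820 to 0.220 for PDIA3. It ranged from -0.0238 to 0.189 for HYOU1, -0.195 to 0.0165 for DNAJB11 and -0.0239 to 0.161 for HSPA9. On the scaled values only DNAJB11 of these genes changed sign, with a range of -0.0496 to 0.0187. The scaled ranges were 0.0530 to 0.0584 for CANX, 0.0587 to 0.222 for PDIA3, 0.153 to 0.164 for HYOU1 and 0.129 to 0.1585 for HSPA9. The causes were not tested. The estimated depth limits DNAJB9 and PDIA3 most, at 557 to 1165 reads per library.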

Other observations

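Beyond the chaperones, 20 further genes held an ERSE in the 250 bases upstream of a start, of which 12 were in the table and 7 were tested. On the deposited values 1 rose, 0 fell and 6 did not pass in limma, and their median log2 fold change was 0.21 (0.28 after scaling). SYNPO, an actin-associated gene, was the one that rose, from 0.547 and 0.645 RPKM in the control to 2.37 and 2.57 RPKM in the knockdown libraries (limma, adjusted p = 1.01e-11). After scaling 4 were higher and 0 lower, the others being EIF2A, TMEM120A and FICD, the enzyme that modifies HSPA5 (limma, adjusted p = 0.0178). FICD was at 3.40 and 4.26 RPKM in the control and 4.27 and 4.69 RPKM in the knockdown libraries. With 1 library left out of the scaled fit, FICD passed only without control library 2 (adjusted p up to 0.0705 in limma), and TMEM120A was lost without control library 1 and without control library 2 (up to 0.0714). The genes were named after their values were seen.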
